A study of Mus musculus with 4 samples.

Results

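Matrix metalloproteinases (MMPs) are zinc-dependent endopeptidases that cut collagens, gelatin, elastin and other proteins outside the cell, and tissue inhibitors of metalloproteinases (TIMPs) are the small secreted proteins that block them. Transcripts of 8 genes of this system were followed in single cells sorted from mouse thymus: the proteases Mmp2, Mmp9, Mmp12, Mmp13 and Mmp14 and the inhibitors Timp1, Timp2 and Timp3. They were taken by gene symbol, each symbol matched a single entry, and the 8 entries came from a list of 55418. The rule used no measured value, but the genes were chosen with earlier results of these data known.

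The cells came from C57BL/6 mice that carry a fluorescent reporter. MaFIA mice (genotype Csf1r-EGFP-NGFR/FKBP1A/TNFRSF6, aged 5 weeks, female by the study's methods) express a green reporter, together with an inducible death receptor, from the promoter of Csf1r, the receptor of the macrophage growth factor CSF-1. CD11c-YFP mice (genotype Itgax-Venus, aged 9 weeks, male by the study's methods) express a yellow reporter from the promoter of Itgax, which is active in dendritic cells and many macrophages. Thymuses were digested with DNase I and collagenase P, light cells were taken from a Percoll gradient, GFP+ or YFP+ cells were sorted, and 3′ libraries were made by the 10x Genomics v3 protocol. Each reporter has 2 libraries, and reporter, age and sex cannot be told apart. The study's methods count 1 MaFIA and 2 CD11c-YFP mice, so that the 3 libraries used here are taken as 3 samples. The p-values measure how far the differences between classes vary from library to library.

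MaFIA replicate 1 stood apart. Of its 5493 cells, 5338 (97.18%) fell in a cluster whose best-matching marker list was that of neutrophils, and its median was 3980.5 unique molecular identifiers (UMIs, counted mRNA molecules) per cell. It was left out of every comparison. The other 3 libraries held 126700210 to 185882793 UMIs, with medians of 15759 to 17493 UMIs per cell, and 23549 of their 23771 barcodes passed the filters. Any pair of libraries shared 10 to 25 barcodes.

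Cells were clustered with the 8 genes left out, and clusters were named from marker genes. Of the 23549 cells, 21075 (89.49%) fell in 12 named classes. Macrophages formed a Timd4+ class (960 cells, with all 10 of its markers higher than in any other class) and a Cx3cr1+ class (2018 cells, 7 of 10 markers). Monocytes numbered 1143 (7 of 10 markers). The remaining classes are called X-like after their markers: Xcr1+, Ccr7+ and Cd209a+ dendritic cell (DC)-like cells (7 of 8, 8 of 8 and 4 of 8 markers), plasmacytoid DC (pDC)-like, B cell-like, thymocyte-like, cytotoxic lymphocyte-like, fibroblast-like (127 cells) and thymic epithelial-like cells (87 cells). The cluster behind the thymocyte-like class was led by Dntt, Arpp21 and Trgc2 and had none of its markers among its leading genes, so it is described and not tested against others. The fibroblast-like class held 7, 69 and 51 cells in MaFIA replicate 2 and CD11c-YFP replicates 1 and 2, and values for it rest on the last 2 libraries. Genes that vary with the 8 were not left out of the clustering.

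MMPs are made as inactive proenzymes. MMP14, a protease anchored in the cell membrane, activates pro-MMP2 at the cell surface, and TIMP2 takes part in this step as the adaptor that docks pro-MMP2 to MMP14, while an excess of TIMP2 blocks it. MMP2 and MMP9 are the gelatinases, which cut denatured collagen and the type IV collagen of basement membranes. MMP12 is the macrophage elastase, and MMP13 is the main interstitial collagenase of the mouse. TIMP1 is a strong inhibitor of MMP9 and a weak one of MMP14, and TIMP3 is bound to the extracellular matrix and also inhibits proteases of the ADAM and ADAMTS families. In the thymus, where macrophages clear the many thymocytes that die during selection, the matrix is laid down mainly by fibroblasts and epithelial cells.

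On the build GRCm39, Mmp2 (ENSMUSG00000031740) lies at chr8:93553902-93580049, Mmp9 (ENSMUSG00000017737) at chr2:164780439-164797771 and Mmp14 (ENSMUSG00000000957) at chr14:54668878-54682821, each on the plus strand. Mmp13 (ENSMUSG00000050578, chr9:7272514-7283331) and Mmp12 (ENSMUSG00000049723, chr9:7344381-7369499) are neighbours in the MMP gene cluster of chromosome 9, on the same strand. Timp2 (ENSMUSG00000017466) lies at chr11:118191887-118246566 on the minus strand. Timp1 (ENSMUSG00000001131, chrX:20736316-20740976) lies within the synapsin gene Syn1 and Timp3 (ENSMUSG00000020044, chr10:86136236-86185371) within Syn3, in both cases on the opposite strand to the host gene. Whether reads were counted by strand is not given in the sources used here, so values of Syn1 and Syn3 are given where they touch a result.

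Promoter windows from RefSeq (build GRCm38.p6, from 250 bases before to 50 bases after a transcription start) were matched by symbol for 6 of the 8 genes. Mmp2 and Mmp9 are named without one. The windows of the neighbours Mmp13 and Mmp12 are shown because their transcripts were high in different cells, and those of Mmp14 and Timp2 because both were highest in Cx3cr1+ macrophages. Capitals mark matches on the printed strand to the letters TGANTCA (the AP-1 site), TATAAA (the TATA box), GGGCGG (the GC box) and AGGAAG (an ETS core), each searched on both strands. The 4 windows, 5′ to 3′ on the strand of the gene, are these.
Mmp13 (chr9:7272264-7272563, plus strand): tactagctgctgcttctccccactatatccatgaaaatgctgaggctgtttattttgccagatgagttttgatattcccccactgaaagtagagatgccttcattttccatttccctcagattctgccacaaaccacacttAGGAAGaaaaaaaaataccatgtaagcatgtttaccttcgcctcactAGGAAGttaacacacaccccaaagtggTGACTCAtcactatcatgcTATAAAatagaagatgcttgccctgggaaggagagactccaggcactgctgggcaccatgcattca
Mmp12, the later of its 2 annotated starts (chr9:7347124-7347423, plus strand): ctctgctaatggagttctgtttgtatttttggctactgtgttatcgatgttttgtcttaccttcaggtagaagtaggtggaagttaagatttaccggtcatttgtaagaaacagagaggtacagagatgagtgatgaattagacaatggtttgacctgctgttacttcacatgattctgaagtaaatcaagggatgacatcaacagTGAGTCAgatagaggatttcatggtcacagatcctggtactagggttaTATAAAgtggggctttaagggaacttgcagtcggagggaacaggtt
Mmp14 (chr14:54431348-54431647, plus strand): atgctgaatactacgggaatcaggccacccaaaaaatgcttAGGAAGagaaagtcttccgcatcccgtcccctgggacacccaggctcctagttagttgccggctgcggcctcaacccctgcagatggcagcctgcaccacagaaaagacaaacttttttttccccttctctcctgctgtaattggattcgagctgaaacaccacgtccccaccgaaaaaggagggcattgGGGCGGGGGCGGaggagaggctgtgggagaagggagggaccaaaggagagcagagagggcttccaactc
Timp2 (chr11:118355362-118355661, minus strand): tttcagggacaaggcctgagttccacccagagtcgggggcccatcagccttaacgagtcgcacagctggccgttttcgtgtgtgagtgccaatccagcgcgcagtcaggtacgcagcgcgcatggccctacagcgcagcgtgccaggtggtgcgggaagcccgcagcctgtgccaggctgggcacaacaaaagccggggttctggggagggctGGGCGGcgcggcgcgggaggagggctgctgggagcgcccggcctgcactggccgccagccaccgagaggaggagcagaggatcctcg

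The Mmp13 window held an AP-1 match 35 to 29 bases before the start, a TATA match 16 to 11 bases before it, and ETS matches beginning 109 and 62 bases before it. The printed Mmp12 window held an AP-1 match 44 to 38 bases before the start and a TATA match 5 to 10 bases after it. The window at the earlier Mmp12 start, not printed, held an ETS match 87 to 82 bases before that start and no AP-1 or TATA match. The Mmp14 and Timp2 windows held no AP-1 or TATA match either. Mmp14 had GC boxes beginning 19 and 13 bases before the start and an ETS match beginning 209 bases before it, and Timp2 had a GC box beginning 37 bases before it. Of 32851 windows of the same length in the table, 7.81% held an AP-1 match, 13.6% a TATA match, 35.7% a GC box and 35.4% an ETS core. The windows of Timp1 and Timp3, not printed, held GC boxes and ETS cores. Such matches describe letters and not binding.

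Levels are given as counts per 1000000 UMIs of all genes (CPM), summed over the cells of a class in a library, and are listed in the order MaFIA replicate 2, CD11c-YFP replicate 1, CD11c-YFP replicate 2. Differences are log2 fold changes with their standard errors (SE) from edgeR's quasi-likelihood test on these sums, with the library as a block. The Benjamini-Hochberg method adjusted p over the genes tested in each comparison, and a difference is called when its adjusted p is below 0.05. In a sum over a class, fewer cells with a transcript and less of it per cell cannot be told apart, so shares of cells are given too, after each cell was thinned at random to 3000 UMIs.

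Mmp2 separated the macrophages most clearly. Its level was 254.7, 233.2 and 234.9 CPM in Cx3cr1+ macrophages, 18.77, 30.5 and 32.56 CPM in Timd4+ macrophages, and 4.559, 1.872 and 8.016 CPM in monocytes. The 3 populations did not overlap. Mmp2 was 10.15-fold higher in Cx3cr1+ than in Timd4+ macrophages (log2 3.34, SE 0.263, edgeR adjusted p = 1.13e-05) and 55.57-fold higher in Cx3cr1+ macrophages than in monocytes (log2 5.80, SE 0.332, edgeR adjusted p = 6.34e-06). Timd4+ macrophages in turn exceeded monocytes 5.475-fold (log2 2.45, SE 0.363, edgeR adjusted p = 0.000338).

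Fibroblast-like cells, with 365.3 and 414.1 CPM of Mmp2, were above Cx3cr1+ macrophages in both libraries, but this difference did not pass the test (log2 0.44, SE 0.217, edgeR adjusted p = 0.116). Thymic epithelial-like cells had 8.07 ± 3.09 CPM (SD, n = 3), and the mean of each remaining class lay between 0.82 and 1.80 CPM. With 2018 cells against 127 fibroblast-like cells after this sort, Cx3cr1+ macrophages held 86.8% ± 5.43 (SD, n = 3 libraries) of the Mmp2 UMIs in the cells of a library that passed the filters. After thinning, 45.7% ± 2.82 of Cx3cr1+ macrophages had an Mmp2 UMI, against 5.86% ± 1.22 of Timd4+ macrophages, 1.03% ± 0.642 of monocytes (SD, n = 3) and 61.3% ± 3.50 of fibroblast-like cells (SD, n = 2). B cell-like cells, which should lack the transcript, gave 0.229% ± 0.068 (SD, n = 3). Before thinning, the shares were 81.8% in Cx3cr1+ and 25.4% in Timd4+ macrophages, whose median depths were 18174 to 25103 and 12319 to 18208 UMIs.

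Mmp14, which encodes the membrane-anchored activator of MMP2, had a broader pattern. Cx3cr1+ macrophages had 421.9, 442.5 and 370.1 CPM, Timd4+ macrophages 116.3, 147.1 and 98.84 CPM, and monocytes 240.7, 169.5 and 182.9 CPM. Here monocytes lay between the macrophages, and again no ranges overlapped. Mmp14 was 3.81-fold higher in Cx3cr1+ than in Timd4+ macrophages (log2 1.93, SE 0.153, edgeR adjusted p = 1.22e-05) and 1.90-fold higher than in monocytes (log2 0.92, SE 0.149, edgeR adjusted p = 0.00120). Against monocytes, Timd4+ macrophages were 2.01-fold lower (log2 -1.005, SE 0.153, edgeR adjusted p = 0.000397).

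Outside the macrophages, Mmp14 was found at 246.8 and 324.0 CPM in fibroblast-like cells, which did not differ detectably from Cx3cr1+ macrophages (log2 -0.65, SE 0.350, edgeR adjusted p = 0.156), and at 107 ± 30.4 CPM (SD, n = 3) in thymic epithelial-like cells. The 3 DC-like classes came next. Their levels were 68.6, 21.01 and 30.93 CPM in Ccr7+, 48.23, 15.05 and 24.78 CPM in Xcr1+ and 39.08, 27.74 and 27.82 CPM in Cd209a+ DC-like cells, with the highest value in MaFIA replicate 2 each time. B cell-like cells had 2.90 CPM. In thinned cells, 66.1% of Cx3cr1+ macrophages, 39.4% of monocytes and 24.1% of Timd4+ macrophages had an Mmp14 UMI, against 0.755% of B cell-like cells.

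Timp2, the inhibitor that also docks pro-MMP2, was present in nearly every macrophage. Cx3cr1+ macrophages had 1928, 1892 and 1335 CPM, Timd4+ macrophages 1053, 1015 and 957.6 CPM, and monocytes 151.9, 169.9 and 196.4 CPM. Cx3cr1+ macrophages were above Timd4+ macrophages in every library, and both stood well above monocytes. Timp2 was 1.89-fold higher in Cx3cr1+ than in Timd4+ macrophages (log2 0.91, SE 0.151, edgeR adjusted p = 0.00108), 9.01-fold higher in Cx3cr1+ macrophages than in monocytes (log2 3.17, SE 0.164, edgeR adjusted p = 3.72e-06) and 4.78-fold higher in Timd4+ macrophages than in monocytes (log2 2.26, SE 0.159, edgeR adjusted p = 3.17e-06).

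The share of thinned cells with a Timp2 UMI was 92.0% ± 1.60 in Cx3cr1+ macrophages, 91.3% ± 0.493 in Timd4+ macrophages (SD, n = 3) and 90.03% ± 0.2404 in fibroblast-like cells (SD, n = 2), against 31.9% in monocytes and 3.76% in B cell-like cells. The shares of the macrophage classes overlapped over libraries, while the median cell held 42, 32 and 22 Timp2 UMIs in the Cx3cr1+ class and 18, 14 and 13 in the Timd4+ class, in cells of unequal depth. Fibroblast-like cells had 834.1 and 870.4 CPM, below Cx3cr1+ macrophages (log2 -1.26, SE 0.298, edgeR adjusted p = 0.000954) and not detectably different from Timd4+ macrophages (edgeR adjusted p = 0.532). Without CD11c-YFP replicate 1 the first of these differences was as large but was not called (log2 -1.24, edgeR adjusted p = 0.0803).

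Timp2 was not restricted to macrophages and stroma. Plasmacytoid DC-like cells, which make type I interferon, had 162 ± 8.14 CPM (SD, n = 3), a level not detectably different from that of monocytes (log2 0.35 for monocytes over pDC-like cells, SE 0.258, edgeR adjusted p = 0.317). In thinned cells 37.8% ± 2.67 of them had a Timp2 UMI. They were higher than B cell-like cells, which had 12.5 ± 3.01 CPM (log2 3.56, SE 0.289, edgeR adjusted p = 1.89e-11). Cytotoxic lymphocyte-like cells followed with 116 ± 25.7 CPM, and thymic epithelial-like cells had 68.5 ± 44.9 CPM (SD, n = 3). Over all genes, 39.9% were called between pDC-like and B cell-like cells.

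**Figure D1:**
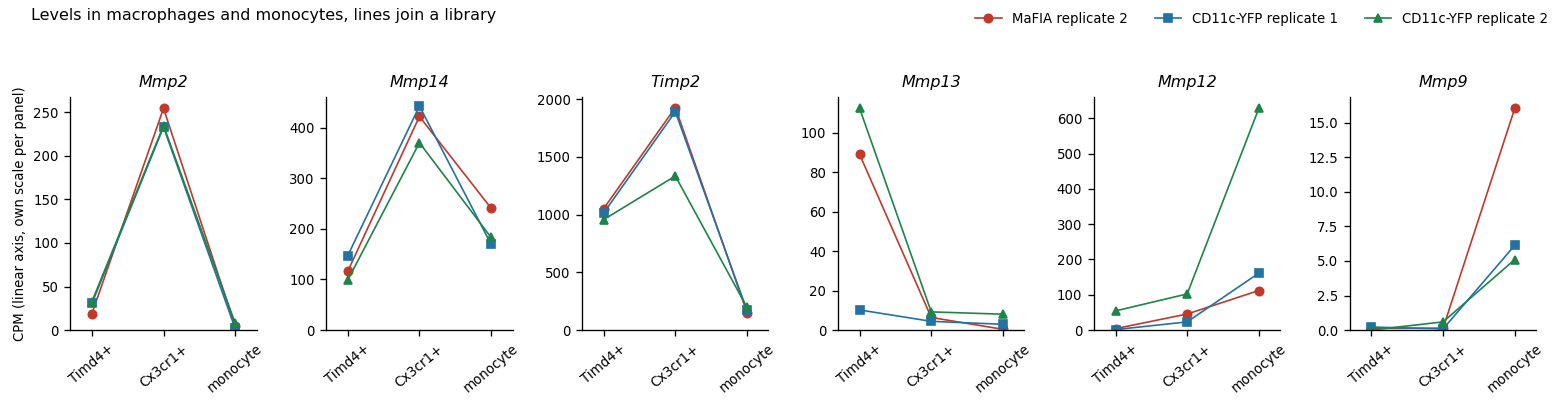
Levels in CPM (linear axes, 1 panel per gene) of Mmp2, Mmp14, Timp2, Mmp13, Mmp12 and Mmp9 in Timd4+ macrophages, Cx3cr1+ macrophages and monocytes, with 1 point per library and lines that join the values of a library. Mmp2, Mmp14 and Timp2 were highest in Cx3cr1+ macrophages in each library, Mmp13 was highest in Timd4+ macrophages, and Mmp12 and Mmp9 were highest in monocytes.

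Mmp13 went the other way from Mmp2. Timd4+ macrophages had 88.97, 10.17 and 112.3 CPM, Cx3cr1+ macrophages 6.352, 4.404 and 9.201 CPM, and monocytes 0.3647, 2.911 and 8.016 CPM. The Timd4+ value was highest in every library, but that of CD11c-YFP replicate 1 was far below those of the other libraries and just above the highest Cx3cr1+ value. Mmp13 was 8.36-fold lower in Cx3cr1+ than in Timd4+ macrophages (log2 -3.06, SE 0.504, edgeR adjusted p = 0.00107) and 13.61-fold higher in Timd4+ macrophages than in monocytes (log2 3.77, SE 0.630, edgeR adjusted p = 0.000740). Between Cx3cr1+ macrophages and monocytes no difference was called (log2 0.70, SE 0.728, edgeR adjusted p = 0.489).

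A small number of cells carried this collagenase transcript. In MaFIA replicate 2 the 43 Timd4+ macrophages with the most Mmp13 held 82.57% of the 763 UMIs of 427 cells, and 1 cell held 74. In CD11c-YFP replicate 2 the top 24 of 239 cells held 99.22% of 383 UMIs, and the highest cell held 75. After thinning, 8.32% ± 5.57 of Timd4+ macrophages had an Mmp13 UMI (SD, n = 3, range 3.74% to 14.5%), against 1.28% of Cx3cr1+ macrophages and 0.778% of monocytes. No thinned B cell-like cell had one, where 3 cells would have been 0.274% to 0.307%. Neither fibroblast-like nor thymic epithelial-like cells had an Mmp13 UMI in any library used, and 3 UMIs would have given 2.654 to 7.5 CPM there.

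Mmp12, the macrophage elastase, was at a higher level in monocytes and Cd209a+ DC-like cells than in macrophages within each library. Monocytes had 112.0, 161.3 and 628.2 CPM, Cd209a+ DC-like cells 149.2, 41.5 and 153.6 CPM, and Cx3cr1+ macrophages 45.4, 23.06 and 102.3 CPM. Timd4+ macrophages had 3.965, 1.298 and 54.26 CPM, and in CD11c-YFP replicate 2 a single cell held 99 of their 185 UMIs. Within each library Cx3cr1+ macrophages were above Timd4+ macrophages and below monocytes, and the monocyte values were above every macrophage value. The ranges of the macrophage classes overlapped, and CD11c-YFP replicate 2 was the highest library in each of these 4 classes.

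Mmp12 was higher in Cx3cr1+ than in Timd4+ macrophages (log2 2.34, SE 0.493, edgeR adjusted p = 0.00431), and lower in Timd4+ macrophages than in monocytes (log2 -4.70, SE 0.502, edgeR adjusted p = 4.25e-05). It was lower in Cx3cr1+ macrophages than in monocytes (log2 -2.36, SE 0.424, edgeR adjusted p = 0.00218), and that last result changed sign under some other clusterings. At a finer clustering resolution it was 1.16 on the log2 scale in favour of Cx3cr1+ macrophages (edgeR adjusted p = 0.106), and with all 4 libraries clustered together it was 2.46 (edgeR adjusted p = 0.00203). The contrast of Timd4+ macrophages with monocytes lost its call under the same settings (log2 -1.34 and -0.89, edgeR adjusted p = 0.087 and 0.171). The cause of these changes was not tested.

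The monocytes' Mmp12 was uneven between cells. At the finer resolution 13, 42 and 26 cells left the monocytes as a cluster of their own, led by Retnla, Lyz1 and, although it took no part in the clustering, Mmp12. These 81 cells held 85.8%, 91.2% and 85.6% of the monocytes' Mmp12 UMIs, at 1563, 1738 and 3142 CPM. In the other monocytes of the main clustering the level was 16.9, 15.4 and 109.0 CPM. With all 4 libraries clustered together, 11, 32 and 18 cells formed such a cluster and held less, 60.1%, 61.1% and 13.2% of these UMIs. The other monocytes of the main clustering were then at 47.2, 67.3 and 607.5 CPM. They are not the monocytes that the 4-library clustering named, whose levels are not given here. With all variable genes the shares were 60.1%, 61.1% and 15.7%. At the finer resolution the naming rule matched the cluster best to eosinophil markers (score 1.987, against 1.46 for monocyte markers). Of these, Ear2 was at 219.5, 659.5 and 762.1 CPM. Siglecf was at 8.9, 9.825 and 8.515 CPM, Prg2 at 0, 0 and 4.257 CPM, and Epx at 0 CPM in each library. The cluster is therefore left without a cell type name. At the finer resolution it also had Timp2, at 347.1 and 368.4 CPM in MaFIA replicate 2 and CD11c-YFP replicate 1, and less Mmp14 than the monocytes as a whole, at 53.4 and 85.97 CPM in those libraries. The cluster was looked at after the values were seen, and these numbers carry no test.

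Among the DC-like classes Mmp12 set Cd209a+ cells apart. Xcr1+ DC-like cells, which are specialised in cross-presentation, had 0.6006, 0.591 and 1.217 CPM, and Ccr7+ DC-like cells, the activated DCs that present self antigens in the medulla, had 2.801, 1.222 and 6.338 CPM. Both lay below every Cd209a+ value (log2 -7.06, SE 0.551, edgeR adjusted p = 2.38e-11 and log2 -4.92, SE 0.465, edgeR adjusted p = 3.51e-10). Monocytes exceeded Cd209a+ DC-like cells in the test (log2 1.22, SE 0.379, edgeR adjusted p = 0.0193, 20.7% of all genes called), but were below them in MaFIA replicate 2. The monocytes of the main clustering outside the Retnla-led cluster of the finer resolution, at 16.9, 15.4 and 109.0 CPM, were below the Cd209a+ value of each library. Within the Cd209a+ class, the cluster led by Plet1, Ffar2 and Cd209a had 241.4, 46.4 and 212.4 CPM and the cluster led by Cd209d, Cd209e and Mgl2 had 17.87, 10.01 and 11.99 CPM, without overlap.

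In thinned cells, 10.2% ± 5.03 of Cd209a+ DC-like cells, 8.05% ± 6.66 of monocytes and 3.74% ± 2.08 of Cx3cr1+ macrophages had an Mmp12 UMI (SD, n = 3), against 0.485% of B cell-like cells. The 10% of cells with the most Mmp12 held 87.42% to 95.51% of its UMIs in Cd209a+ DC-like cells, 95.53% to 100% in monocytes and 97.64% to 100% in Cx3cr1+ macrophages. Of the Mmp12 UMIs in the cells of a library that passed the filters, Cd209a+ DC-like cells held 29.0% to 49.6%, monocytes 16.7% to 56.1% and Cx3cr1+ macrophages 17.3% on average. By number of UMIs, Cx3cr1+ macrophages exceeded monocytes in MaFIA replicate 2 (679 against 614) and CD11c-YFP replicate 2 (1734 against 1724). In CD11c-YFP replicate 1 they had fewer (288 against 1551).

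**Figure D2:**
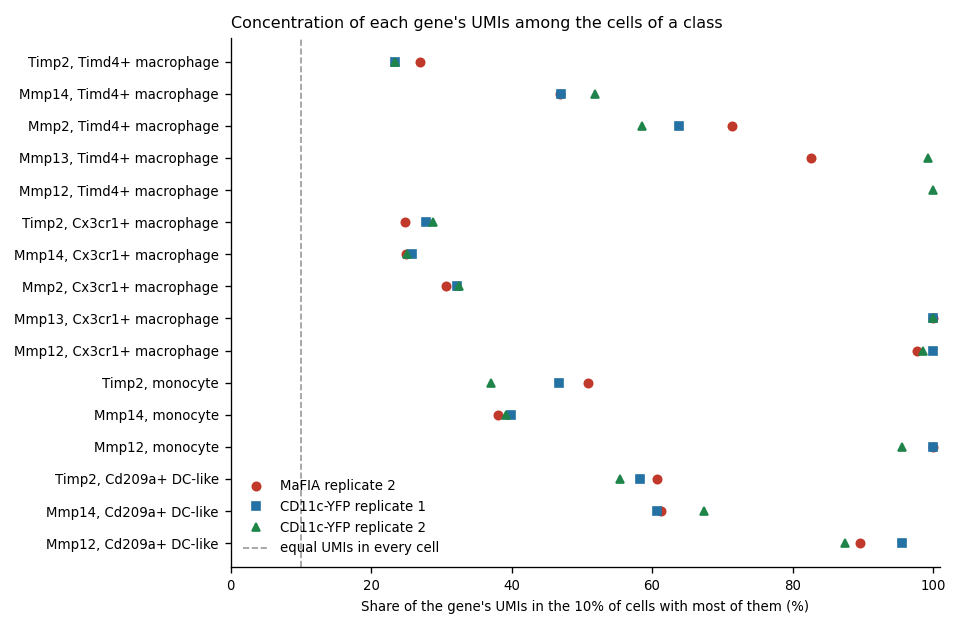
Share (percent) of a gene's UMIs held by the 10% of cells with the most of that gene, for each gene, class and library with at least 50 UMIs. The dashed line at 10% is an even spread over cells. Mmp12 lay at 87.42% or more in Cd209a+ DC-like cells, monocytes and Cx3cr1+ macrophages and Mmp13 at 82.57% or more in Timd4+ macrophages, while Timp2 in macrophages lay at 23.34% to 28.85%.

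Mmp9, the other gelatinase, was almost absent from the macrophages. Fibroblast-like cells had 237.1 and 188.9 CPM, thymic epithelial-like cells 51.41, 45.0 and 52.15 CPM, and monocytes 16.05, 6.134 and 5.101 CPM. The mean of every other class was 0.374 CPM or less, and B cell-like cells had no Mmp9 UMI, where 3 UMIs would have given 0.197 to 0.221 CPM. Mmp9 was lower than in monocytes both in Cx3cr1+ macrophages (log2 -5.03, SE 0.576, edgeR adjusted p = 0.000195) and in Timd4+ macrophages (log2 -6.50, SE 0.80, edgeR adjusted p = 0.000106). The macrophages did not differ detectably from each other (log2 1.46, SE 1.29, edgeR adjusted p = 0.413). In MaFIA replicate 2, 72 of the 88 Mmp9 UMIs of monocytes came from 5 cells rich in the neutrophil transcript S100a9, and without those cells the monocyte level there was 2.95 CPM. Few monocytes held Mmp9 in the other libraries too. The 59 UMIs of CD11c-YFP replicate 1 came from 8 of 656 cells, and the 14 of CD11c-YFP replicate 2 from 4 of 160.

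Fibroblast-like cells had more Mmp9 than thymic epithelial-like cells (log2 2.46, SE 0.381, edgeR adjusted p = 1.36e-05, 28.3% of all genes called), which in turn exceeded monocytes (log2 -2.04 for monocytes over thymic epithelial-like cells, SE 0.374, edgeR adjusted p = 4.49e-05). In thinned cells 41.6% of fibroblast-like, 7.48% of thymic epithelial-like cells and 1.13% of monocytes had an Mmp9 UMI. The gelatinases thus differed in where they were found. Mmp2 was shared by fibroblast-like cells and Cx3cr1+ macrophages, whereas Mmp9 was found in the stromal classes and, at a lower level, in monocytes.

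Timp3, the matrix-bound inhibitor, had its highest levels in the same stromal classes, but part of its UMIs lay outside them. Of 350 Timp3 UMIs in CD11c-YFP replicate 1, 167 were in fibroblast-like, 52 in thymic epithelial-like and 37 in Ccr7+ DC-like cells. Thymic epithelial-like cells had 194.4, 130.0 and 199.9 CPM and fibroblast-like cells 147.7 and 196.2 CPM, which did not differ detectably (log2 0.13, SE 0.346, edgeR adjusted p = 0.842). No other class had a mean above 1.13 CPM. Fibroblast-like cells exceeded Cx3cr1+ macrophages 626-fold in Timp3 (log2 9.29, SE 0.487, edgeR adjusted p = 1.16e-15). The host gene Syn3 was at 6.192 and 5.812 CPM in fibroblast-like cells and at 0, 5.0 and 0 CPM in thymic epithelial-like cells, well below Timp3. Thinned cells with a Timp3 UMI made up 24.2% of thymic epithelial-like and 20.0% of fibroblast-like cells, and the 10% of fibroblast-like cells with the most Timp3 held 64.67% and 72.59% of its UMIs.

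Timp1, the soluble inhibitor that pairs with MMP9, had the fewest UMIs of the 8 genes, with 60, 64 and 96 in the 3 libraries. Thymic epithelial-like cells had 56.23, 25.0 and 28.56 CPM, from 35, 10 and 23 UMIs, and fibroblast-like cells had 4.423 and 18.89 CPM, from 5 and 13 UMIs. The ranges did not overlap, and fibroblast-like cells were lower (log2 -1.77, SE 0.668, edgeR adjusted p = 0.0462). Their excess over Cx3cr1+ macrophages (log2 4.77, SE 0.770, edgeR adjusted p = 7.62e-06) was not called without CD11c-YFP replicate 2 (log2 3.04, edgeR adjusted p = 0.0628). In every remaining class the mean was 0.628 CPM or less. Syn1, which spans Timp1, was at 10.96, 14.71 and 9.386 CPM in Timd4+ macrophages, where Timp1 had a mean of 0.183 CPM.

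**Figure D3:**
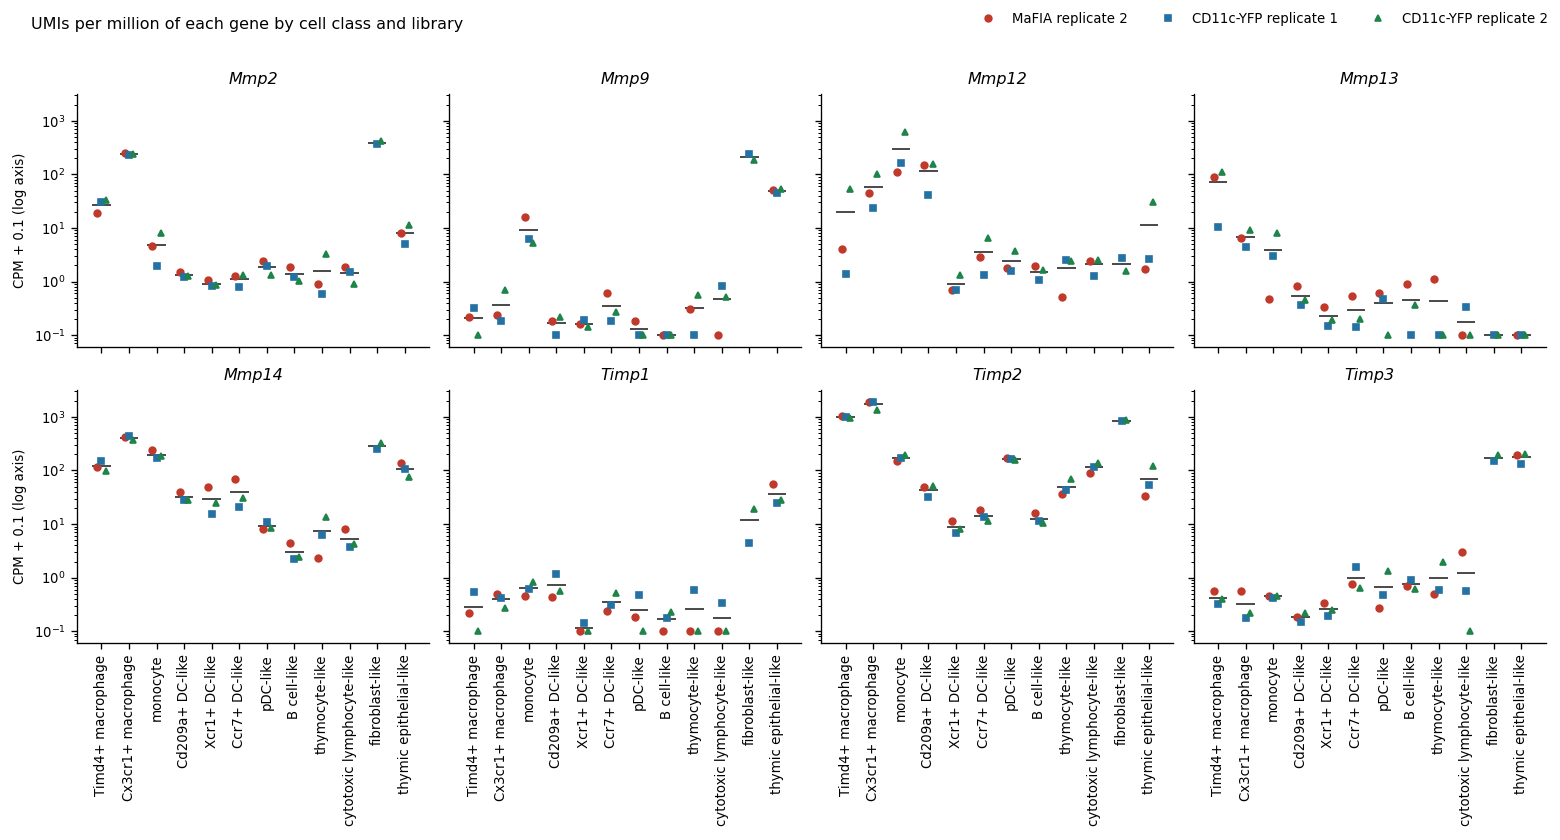
Levels of the 8 genes in 12 classes, 1 panel per gene, as CPM + 0.1 on a log axis, with 1 point per library and a bar at the mean. Mmp2 was highest in fibroblast-like cells and Cx3cr1+ macrophages, Mmp14 and Timp2 in Cx3cr1+ macrophages, Mmp13 in Timd4+ macrophages, Mmp12 by its mean in monocytes, Mmp9 in fibroblast-like cells, and Timp1 and Timp3 in thymic epithelial-like and fibroblast-like cells.

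Counted together, 6 of the 8 genes could be tested among the macrophages and monocytes, since Timp1 and Timp3 were too low to pass the filter there. Between Cx3cr1+ and Timd4+ macrophages, 5 of the 6 were called, with Mmp2, Mmp12, Mmp14 and Timp2 higher and Mmp13 lower. Of 13016 genes tested, 38.2% were called in this comparison. The median absolute difference was 2.13 on the log2 scale for the 6 genes and 0.35 for all genes. Against monocytes, 5 of 6 were called for Cx3cr1+ macrophages (35.8% of all genes) and 6 of 6 for Timd4+ macrophages (51.4% of all genes), with median absolute differences of 2.77 and 3.11 against 0.36 and 0.53 for all genes. Without a library block, which leaves the libraries' own differences in the error, Mmp12 was not called in either comparison of Cx3cr1+ macrophages (edgeR adjusted p = 0.308 and 0.143), and the counts were 4, 4 and 6.

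Between fibroblast-like cells and Cx3cr1+ macrophages, 5 of the 8 genes were called, against 37.1% of 18688 genes. Mmp9, Timp1 and Timp3 were higher and Timp2 and Mmp12 lower in fibroblast-like cells, which gave a median absolute difference of 4.85 against 1.05 over all genes. Of the called genes, Mmp9 showed the widest gap (log2 9.45, SE 0.483, edgeR adjusted p = 3.2e-15). Among the DC-like classes, Ccr7+ cells exceeded Xcr1+ cells in 4 of the 8 genes, Mmp12, Timp1, Timp2 and Timp3, with 51.1% of all genes called. Against Cd209a+ cells, Ccr7+ cells were higher in Timp3 and lower in Mmp12 and Timp2 (47.7% of all genes called), and Xcr1+ cells were lower in Mmp12, Timp1 and Timp2 (28.2% of all genes called). For so few genes, the counts among the DC-like classes were near these shares.

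Levels in the DC-like classes were low, and several of these calls rest on few UMIs. Timp3 was at 0.6465, 1.507 and 0.5533 CPM in Ccr7+, 0.2402, 0.0909 and 0.1549 CPM in Xcr1+ and 0.0819, 0.0518 and 0.1172 CPM in Cd209a+ DC-like cells (log2 2.51, SE 0.521, edgeR adjusted p = 0.000153 and log2 3.57, SE 0.658, edgeR adjusted p = 3.69e-05). Its host gene Syn3 moved with it in the Ccr7+ class, at 1.365, 3.625 and 2.012 CPM, and its part in the Timp3 difference was not tested. Timp2 had 18.03, 13.4 and 11.22 CPM in Ccr7+, 11.53, 6.865 and 8.053 CPM in Xcr1+ and 49, 31.98 and 50.79 CPM in Cd209a+ DC-like cells. Its Ccr7+ over Xcr1+ difference (log2 0.76, SE 0.273, edgeR adjusted p = 0.0209) lost its call without CD11c-YFP replicate 1 (edgeR adjusted p = 0.212) and with likely doublets removed (edgeR adjusted p = 0.0689). That of Timp1 (log2 3.78, SE 0.951, edgeR adjusted p = 0.00127) lost it without CD11c-YFP replicate 2 (edgeR adjusted p = 0.137), and that of Mmp12 (log2 2.14, SE 0.601, edgeR adjusted p = 0.00344) without the library block (edgeR adjusted p = 0.0667) and with counts split between clustering and test (edgeR adjusted p = 0.109).

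To look at the macrophages by marker transcript, cells of both classes were divided by whether a Timd4 or a Cx3cr1 UMI was seen after thinning. The cells are those of the same clusters, and the class make-up of each group is not given here. The Cx3cr1+ class itself had Timd4 at 46.65 CPM, so cells with both transcripts can come from it. Macrophages with Timd4 alone had 62.01, 72.72 and 48.34 CPM of Mmp2, and those with both transcripts, 36 to 64 cells per library, had 233.0, 252.7 and 280.2 CPM. Cells with Cx3cr1 alone had 227 ± 15.7 CPM (SD, n = 3). Cells with both transcripts thus stood near the Cx3cr1 cells and did not overlap with the Timd4 cells. Mmp14 gave the same order, at 170.5, 208.3 and 97.28 CPM with Timd4 alone and 320.9, 432.2 and 324.0 CPM with both.

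For Mmp13 the cells with both transcripts, at 14.45, 9.665 and 3.503 CPM, were likewise close to the 7.37 CPM of cells with Cx3cr1 alone, while those with Timd4 alone had 100.2, 9.179 and 128.3 CPM. In CD11c-YFP replicate 1 these groups did not separate. Timp2 was highest in the cells with both, at 2095, 2227 and 2130 CPM, above the 1380, 1349 and 1107 CPM with Timd4 alone and the 1596 ± 246 CPM (SD, n = 3) with Cx3cr1 alone. Without thinning, Mmp2 was at 37.5 CPM with Timd4 alone and 206 CPM with both, and with likely doublets removed it was at 62.5 and 281 CPM. Cells with neither transcript had 178.9 ± 7.434 CPM of Mmp2 and 20.83 ± 15.85 CPM of Mmp13 (SD, n = 3). Their Mmp12 had the highest mean of the groups, 111.8 ± 121.7 CPM, against 21.6 ± 14.21 CPM with Cx3cr1 alone (SD, n = 3). These are descriptions, with no test.

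**Figure D4:**
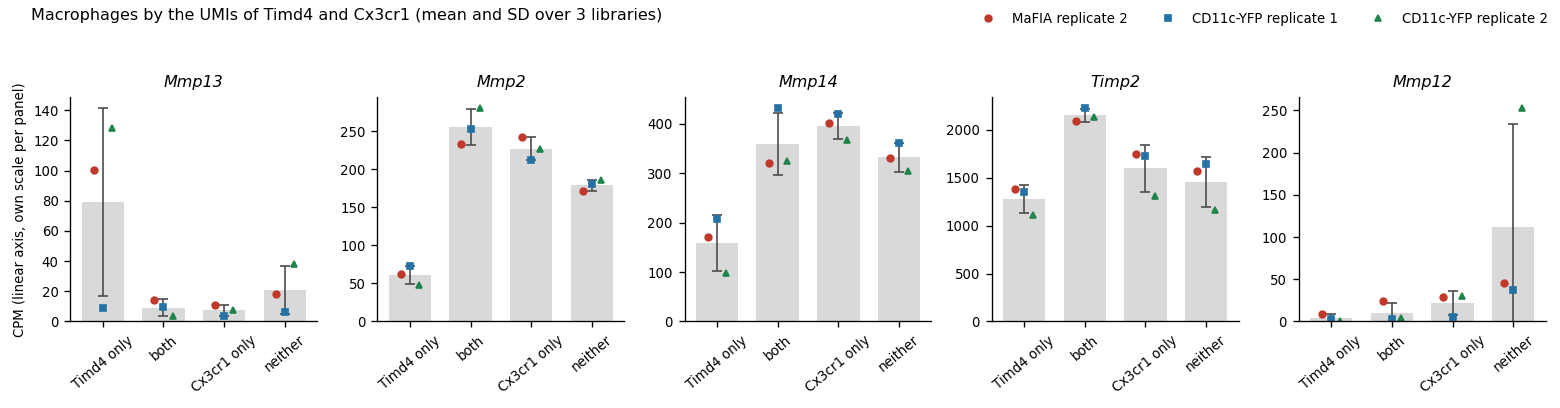
Levels in CPM of Mmp13, Mmp2, Mmp14, Timp2 and Mmp12 in macrophages divided by the presence of a Timd4 or Cx3cr1 UMI after thinning to 3000 UMIs. Axes are linear with a scale of their own, points are libraries, and bars and error bars are the mean and SD over 3 libraries. Mmp2 was at 61.0 CPM with Timd4 alone and at 255.3 and 227.0 CPM in the groups with Cx3cr1, and Mmp13 was at 79.2 CPM with Timd4 alone and below 10 CPM in the groups with Cx3cr1.

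The transcripts of the MMP2 activation step were also seen in the same cells. After thinning, 32.77%, 30.64% and 31.86% of Cx3cr1+ macrophages had UMIs of Mmp2, Mmp14 and Timp2 together. The product of the single shares gave 29.46%, 26.93% and 26.85%, so that the joint share was 1.15 ± 0.0381 (SD, n = 3) times the product. The ratio was 1.067 with cells thinned to 5000 UMIs and 1.008 without thinning. These ratios describe co-detection in cells of the same class and carry no test.

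Across the means of the 12 classes, which share their 3 libraries, Mmp2 correlated with Timp2 at r = 0.841 and with Mmp14 at r = 0.765 on the scale log2(CPM + 1), and Mmp14 with Timp2 at r = 0.649. Timp1 with Timp3 gave 0.951, Mmp9 with Timp3 0.911 and Mmp9 with Timp1 0.867. The genes with the pattern most like each member among 18688 were found by the same measure. They were Cp, Stard13 and Dagla for Mmp2 (r = 0.974 to 0.963), Tnfsf12, Slc41a3 and Hsbp1 for Mmp14 (0.966 to 0.952) and Slc39a9, Ctsd and Slc36a4 for Timp2 (0.962 to 0.929). For Mmp13 they were Gm13479, Smc1b and Gm29291 (0.996 to 0.988), for Mmp12 Sirpb1b, F10 and Sirpb1c (0.964 to 0.958) and for Mmp9 Sgms2, Flrt2 and Rspo1 (0.989 to 0.967). Timp1 was most like Gm28323, Serpina3i and Ank3 (0.992 to 0.991), and Timp3 most like Obsl1, Lpin3 and Fat1 (0.997 to 0.995). With 12 points and no independent samples, these are given without a p.

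Other genes of extracellular proteolysis were counted in the same comparison, in which 38.2% of all genes were called, 19.0% higher and 19.1% lower in Cx3cr1+ macrophages. Of 12 other secreted MMPs, 3 were high enough to be tested between Cx3cr1+ and Timd4+ macrophages, and 1 was called: Mmp27 was at 0.936, 1.842 and 1.003 CPM in Cx3cr1+ and 25.54, 30.5 and 20.82 CPM in Timd4+ macrophages (log2 -4.21, SE 0.220, edgeR adjusted p = 1.64e-06). Mmp27 lies in the same gene family as Mmp13 and, like it, was highest in Timd4+ macrophages. Of 6 other membrane-bound MMPs, 2 were tested and Mmp25 was lower in Cx3cr1+ macrophages (log2 -0.59, edgeR adjusted p = 0.0372). Of 3 other MMP inhibitors, none was high enough to be tested.

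Among ADAM proteases, which shed proteins from cell surfaces, 10 of 12 were tested, 5 were higher and 3 lower in Cx3cr1+ macrophages. Adam15 was 7.27-fold higher (log2 2.86, edgeR adjusted p = 2.09e-06) and Adamdec1, a secreted member, 4.20-fold lower (log2 -2.07, edgeR adjusted p = 0.000913). Both ADAMTS proteases tested, Adamts6 and Adamts10, were higher. Among genes of plasminogen activation, Plau, Plaur and Plgrkt were higher. Plaur, the receptor that holds urokinase at the cell surface, was 5.17-fold higher (log2 2.37, edgeR adjusted p = 1.86e-06).

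Genes for activation, docking and uptake of MMPs included the widest gap of these lists after Mmp27. Lrp1, an endocytic receptor that takes up MMPs and MMP-TIMP complexes, was at 35.1, 43.64 and 51.73 CPM in Cx3cr1+ macrophages and 425, 557.6 and 539.1 CPM in Timd4+ macrophages (log2 -3.40, SE 0.138, edgeR adjusted p = 6.87e-07). Cd63, a surface partner of TIMP1, was 2.66-fold higher in Cx3cr1+ macrophages (log2 1.41, edgeR adjusted p = 0.00125). Of the 7 genes tested in this list of 12, 2 were higher and 2 lower, and the median of the list was 0.01 on the log2 scale against -0.01 for all genes.

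**Figure D5:**
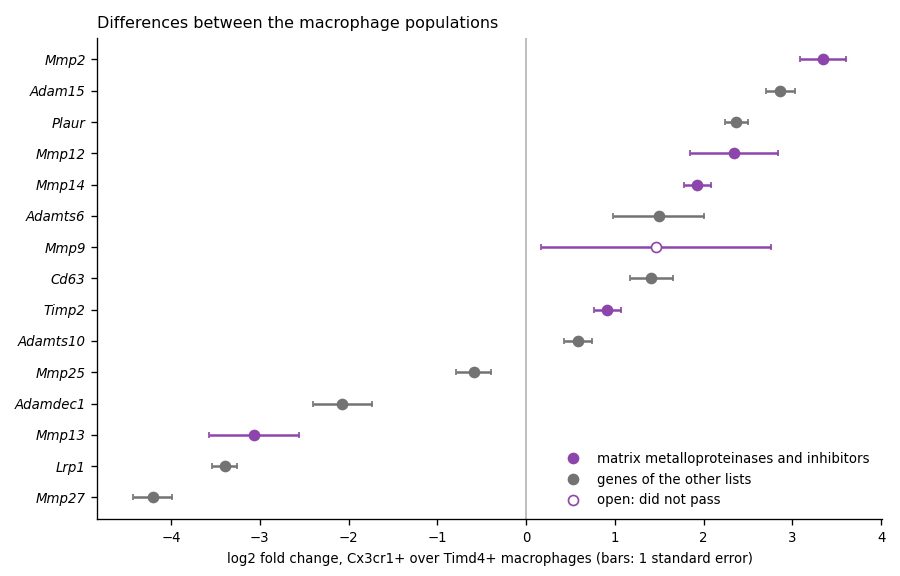
Log2 fold changes of Cx3cr1+ over Timd4+ macrophages with SE bars from edgeR for the family members (purple) and other genes of extracellular proteolysis named in the text (grey). The open symbol is Mmp9, which did not pass. Mmp2, Mmp12, Mmp14 and Timp2 lay to the Cx3cr1+ side, and Mmp13, Mmp27 and Lrp1 to the Timd4+ side.

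Against monocytes, the named genes of these lists were of mixed direction. Mmp27 was 5.34-fold higher in Cx3cr1+ (log2 2.42, edgeR adjusted p = 0.00519) and 98.7-fold higher in Timd4+ macrophages (log2 6.63, edgeR adjusted p = 7.92e-07) than in monocytes, which had 0.1824, 0.3119 and 0 CPM. Cd63 was higher than in monocytes in both (log2 2.49 and 1.08), as was Adamdec1 (log2 3.15 and 5.22). Adam22 was higher in Timd4+ macrophages (log2 3.52) and Adam33 and Serpine2 in Cx3cr1+ macrophages (log2 2.95 and 2.81). Lrp1 was lower than in monocytes in Cx3cr1+ macrophages and higher in Timd4+ macrophages (log2 -1.02 and 2.38). Mmp8, the neutrophil collagenase, was lower in both (log2 -3.41 and -6.56), but 104 of its 135 monocyte UMIs in MaFIA replicate 2 came from the 5 S100a9-rich cells.

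Fibroblast-like cells exceeded Cx3cr1+ macrophages in 9 of 11 ADAMTS proteases, in both tested inhibitors outside the 8 genes, Reck and Timp4, in 3 of 8 tested other secreted MMPs (Mmp3, Mmp11 and Mmp19) and in 2 of 3 membrane-bound ones (Mmp15 and Mmp23), where 37.1% of all genes were called in either direction. The count of secreted MMPs was close to that share. Ccr7+ DC-like cells were higher than both other DC-like classes in each of the 3 membrane-bound MMPs tested, Mmp15, Mmp23 and Mmp25, where 51.1% and 47.7% of all genes were called against Xcr1+ and Cd209a+ cells.

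Whether the macrophage difference depended on the reporter was tested by an interaction. The change between the contrast in MaFIA replicate 2 and in the CD11c-YFP libraries was 2.02 for Mmp12, 0.84 for Mmp2, 0.10 for Mmp14 and 0.14 for Timp2, and -0.95 for Mmp13 and -1.28 for Mmp9, on the log2 scale. None was called (edgeR adjusted p = 0.763 to 0.991), and of all genes 0.0307% were. Mmp12 was the single member with an unadjusted p under 0.05 (0.0339), and the fit had 1 MaFIA library and 2 residual degrees of freedom.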

How the data were processed

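The deposited files hold whole-number UMI counts, as the authors' pipeline gave them and not normalized, for each gene and called barcode of 4 libraries. The labels name bcl2fastq 2.20, STAR 2.7.9a, Cell Ranger and GRCm39, whereas the study's methods name Cell Ranger with another mouse build. The 8 genes and all lists were chosen with earlier results of these data known. Barcodes with 1000 to 7000 genes and at most 10% mitochondrial UMIs were kept. From 2000 variable genes, without the 8 and the listed genes, 70 principal components and 3 neighbours per library were clustered by the Leiden method at resolution 1.0 (leidenalg 0.10.2, igraph 0.11.9, scikit-learn 1.9.0, Python 3.11.15). Names needed a marker score of at least 1.0 and a lead of 0.3, a rule set after the clusters were seen. Doublets were kept in the main analysis. UMIs were summed per library and class, with at least 10 cells, and compared in edgeR 4.0.16 (R 4.3.3, limma 3.58.1, TMM, filterByExpr, quasi-likelihood F test). One model held the macrophages and monocytes (9 sums, 13016 genes, 4 residual degrees of freedom) and another all classes (35 sums, 18688 genes, 21 residual degrees of freedom). The library was a block because its classes come from the same thymus preparation.

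The cell-level rank test of the study was replaced by sums because cells are not replicates. Gene names followed a rule: the 8 genes in full, per list and comparison the 2 called genes of largest change, if all libraries had the same sign and their UMIs came to at least 50, and the 3 genes of most similar pattern. A result of the lists is not reported here. Others named in counts were named after their values were seen. Alternatives were DESeq2 1.42.0, no TMM, no low-count filter, other resolutions, 4 libraries, all variable genes, count splitting, removal of likely doublets (309, 468 and 750 cells), a 5% mitochondrial limit, 50 cells per sum, no library block and each library left out. Scripts were tested on simulated data. Summed depth was 2744471 to 16954795 UMIs in the first model and 400009 to 45199794 in the other. Shares, intervals and floors of 3 counts cover counting error only.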

Additional observations from a re-analysis of the deposited data

Results flagged for a closer look

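MaFIA replicate 1 entered no comparison, and the genes were nevertheless measured in it. Over all of its barcodes Timp2 was at 441.5 CPM (11867 UMIs), above the 166.0 to 362.0 CPM of the other 3 libraries. Mmp9 was at 3.349 CPM (90 UMIs), above their 1.137 to 2.86 CPM, and Timp1 at 0.893 CPM (24 UMIs), above 0.4611 to 0.5165 CPM. Mmp14, at 49.11 CPM (1320 UMIs), and Timp3, at 1.414 CPM (38 UMIs), were below the other libraries, which had 60.54 to 98.59 and 2.186 to 2.522 CPM. Mmp2 (28.76 CPM), Mmp12 (22.4 CPM) and Mmp13 (1.153 CPM) lay within the ranges of the others, 25.27 to 35.22, 21.54 to 41.27 and 1.016 to 8.129 CPM. Its cell make-up and depth differed from theirs, and the part of either in these values was not tested.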

How the results depend on the processing

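Among 50 log2 fold changes followed over 768 alternative values, 729 kept their direction and side of the threshold, 11 lost their call, 18 gained one and 10 changed sign. Of the 31 called ones, 8 lost the call at least once and Mmp12 in Cx3cr1+ macrophages over monocytes changed sign, to 2.458 with all 4 libraries clustered and 1.156 at the higher resolution, where the number of genes called in that comparison was 3. The other sign changes were in results that were not called. Mmp9 in Cx3cr1+ over Timd4+ macrophages ranged from -0.199 to 2.343 with 1 library left out. Mmp2 in Ccr7+ over Cd209a+ DC-like cells was -0.274 without TMM, -0.043 at the 5% mitochondrial limit and -0.212 to 0.225 with 1 library left out. In Xcr1+ over Cd209a+ DC-like cells Mmp9 was -0.016 and Mmp14 -0.175 without TMM, and they ranged from -0.631 to 1.193 and from -0.256 to 0.349 with 1 library left out. The cause of these changes was not tested. The number of genes called in Ccr7+ over Cd209a+ DC-like cells was 5 without a low-count filter, and that in fibroblast-like cells over Cx3cr1+ macrophages was 4 to 8 with 1 library left out, with 8 without MaFIA replicate 2. The other counts with 1 library left out were 5 to 5, 5 to 5, 6 to 6, 3 to 4, 3 to 3 and 3 to 3. Without the replicate block of the library the 7 counts were 4, 4, 6, 3, 3, 3 and 5, against 5, 5, 6, 4, 3, 3 and 5 with it. The joint ratio of Mmp2, Mmp14 and Timp2 in Cx3cr1+ macrophages was 1.067 at 5000 UMIs and 1.008 without thinning. Levels moved by more than their spread in 36 of 500 values and shares in 67 of 251. Small classes limit the precision of stromal values, since fibroblast-like cells had 2 libraries, and thymic epithelial-like cells 21 to 38 cells per library.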

Other observations

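A few cells outside the named classes also had transcripts of the family. The cluster of dividing cells held 6.33% of the Mmp12 UMIs in the cells of a library that passed the filters, on average. An unnamed cluster led by Ncam1 and Nrn1 had Timp3 at 9.87 CPM, a level between those of the stromal classes and of the hematopoietic ones. Among the Xcr1+ DC-like cells, the cluster led by Cd207 had 43.5 ± 23.1 CPM of Mmp14 and the cluster led by Naaa 13.8 ± 8.39 CPM (SD, n = 3). In the Cx3cr1+ class the larger cluster had 250 ± 8.58 CPM of Mmp2 and the smaller one 184 ± 34.1 CPM (SD, n = 3).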
